A study of Homo sapiens with 30 samples.

Results

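The compound by dose interaction in PC3 cells is the log2 difference between SGI-1776-VHL-02 and SGI-1776 at 3750 nM, minus the same difference at 1500 nM. It asks of each gene whether the contrast between a PIM kinase degrader and the inhibitor it is built on grows, shrinks or turns between the doses. It rests on the 24 treated libraries of 30: SGI-1776-VHL-02 at 3750 nM, SGI-1776 at 3750 nM, SGI-1776-VHL-02 at 1500 nM and SGI-1776 at 1500 nM, with 6 libraries each. The other 6 libraries, of cells given DMSO as the solvent, entered only the shared estimate of the spread. All cells were treated for 48 h, and each group holds 3 libraries labelled Rep 1 and 3 labelled Rep 2. A positive interaction means that the degrader stood higher against the inhibitor at 3750 nM than at 1500 nM, and a negative one that it stood lower. The same value is the degrader's step between the doses (3750 against 1500 nM) minus the inhibitor's step.

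PC3 is a prostate cancer line that grows without androgen and is known for the loss of functional p53. PIM kinases are serine/threonine kinases induced by JAK/STAT signalling, and they promote survival, translation and growth. SGI-1776 occupies their ATP site. SGI-1776-VHL-02 is a PROTAC, named for SGI-1776 and for VHL, the substrate receptor of a ubiquitin ligase, so its name joins a kinase ligand to a ligase recruiter. PIM protein levels were not analysed here, and 1 cell line was used. Much of what follows concerns ATF4, a transcription factor whose translation increases when kinases such as GCN2 or PERK phosphorylate eIF2. ATF4 then drives genes that make, import and load amino acids, and genes such as TRIB3 and SESN2 that restrain growth signalling.

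The 30 libraries held 22520292 to 48968707 counts, and 17499 of 58735 genes were tested. Levels are given as CPM, counts scaled to the library size after TMM. The epithelial markers KRT8, KRT18, KRT19, EPCAM and CDH1 were present in all 30 libraries, and KLK3 was at 0 in all. The 6 leukocyte markers summed to 0.530 to 1.49 CPM in SGI-1776-VHL-02 3750 nM, 0.847 to 1.44 CPM in SGI-1776 3750 nM, 0.781 to 1.47 CPM in SGI-1776-VHL-02 1500 nM and 0.672 to 1.33 CPM in SGI-1776 1500 nM. Mitochondrially encoded genes took 1.94 to 3.96% of counts in Rep 1 and 0.296 to 1.67% in Rep 2. Among treated libraries, 3 lay under 0.5%: 2 of SGI-1776-VHL-02 1500 nM and 1 of SGI-1776 3750 nM, all of Rep 2. The part of this low share in the results was not tested beyond leaving these libraries out. Because the labels do not say which libraries came from separate cultures, p-values measure the spread between libraries, which may be technical.

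The interaction was called in 468 of the 17499 genes (2.67%), with 290 positive (1.66%) and 178 negative (1.02%). The test was edgeR's quasi-likelihood test, two-sided, with Benjamini-Hochberg adjustment over all tested genes and a threshold of 0.05, and "called" means below that threshold. By comparison, the compounds differed in 5451 genes (31.2%) at 3750 nM and in 4408 genes (25.2%) at 1500 nM. In bulk RNA, fewer cells in a state and less RNA per cell cannot be told apart. In most called interactions the estimated difference grew, whether or not it passed at each dose. In 315 of 468 the compound difference had the same sign at both doses and was larger at 3750 nM. In 26 it had the same sign and was smaller at 3750 nM. In 127 the signs were opposite, and both differences passed the threshold in 15 of these. Over all 468, both differences passed in 227, only that at 3750 nM in 186 and only that at 1500 nM in 55. Seen as steps, the degrader's step between the doses passed in 387 of the 468 genes and the inhibitor's step in 160. Across all tested genes the degrader's step passed in 3320 (19%; 9.23% higher and 9.74% lower at 3750 nM) and the inhibitor's in 1601 (9.15%; 4.46% higher and 4.69% lower).

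The called interactions were mostly modest. An interaction of at least 2-fold was seen in 22 genes, 19 positive and 3 negative, and one of at least 1.5-fold in 86. With Rep as a block, 1086 genes were called (6.21%), 601 positive (3.43%) and 485 negative (2.77%), and all 468 were among them. Summing the counts of the 3 libraries that share a group and a Rep left 2 samples per group, and no gene was then called without the block: 623 genes were under an unadjusted p of 0.05 and the smallest adjusted p was 0.0701 (edgeR). With the block the summed samples gave 469 genes (2.68%), 290 of them shared with the 468. Leaving out the 3 treated libraries and the 1 DMSO library of low mitochondrial share gave 345 genes (1.97%), 239 of them positive (1.37%) and 106 negative (0.606%).

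**Figure D1:**
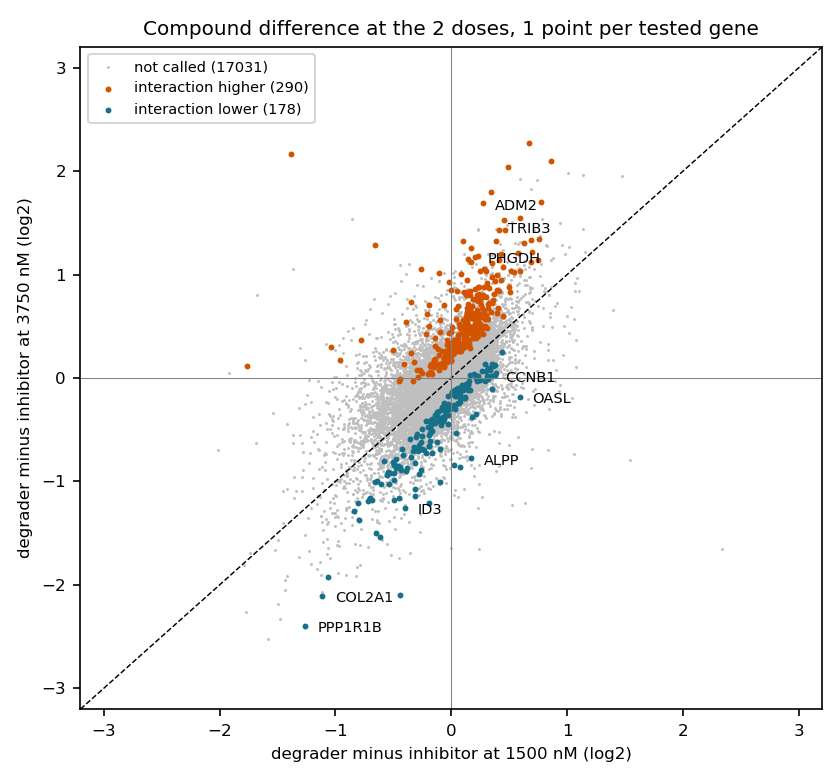
Each point is 1 of the 17499 tested genes, placed by the log2 difference between SGI-1776-VHL-02 and SGI-1776 at 1500 nM (horizontal) and at 3750 nM (vertical); the dashed line marks equal differences. The 290 genes of positive interaction lie above the line and the 178 of negative interaction below it, with ADM2 and PPP1R1B far from it in the 2 directions.

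The targets of the compounds came first. PIM1 had 36.8, 41.2 and 45.1 CPM in SGI-1776-VHL-02 3750 nM (lowest, median and highest library), against 43.0, 43.8 and 47.0 CPM in SGI-1776 3750 nM. At 1500 nM PIM1 had 32.3, 33.2 and 34.3 CPM with the degrader, against 31.5, 35.2 and 38.7 CPM with the inhibitor. PIM1 mRNA was thus higher at 3750 nM with both compounds, and the ranges of the compounds overlapped at each dose. Its interaction was -0.02 ± 0.06 (log2 ± SE; 95% interval -0.15 to 0.11; adjusted p = 0.946). Neither PIM2 (-0.06, interval -0.21 to 0.10) nor PIM3 (-0.07, interval -0.22 to 0.08) was called, at adjusted p = 0.870 and 0.814 (edgeR). VHL had 111, 116 and 121 CPM in SGI-1776-VHL-02 3750 nM, against 98.4, 103 and 110 CPM in SGI-1776 3750 nM, which do not overlap. At 1500 nM VHL had 97.6, 103 and 110 CPM with the degrader, against 101, 105 and 114 CPM with the inhibitor. Its interaction of 0.19 ± 0.05 sat at the threshold (adjusted p = 0.0485 by edgeR), held when 1 library was left out in 4 of 24 fits, and had an adjusted p of 0.0762 in the summed samples with the block. With Rep as a block over 30 libraries the adjusted p was 0.000327 (edgeR). VHL had 0.17 in Rep 1 and 0.21 in Rep 2, and was called in neither Rep alone (adjusted p = 0.169 and 0.0625 by edgeR).

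The largest group of positive interactions was the ATF4 and amino acid stress list. Of its 32 tested members, 21 had a called positive interaction and none a called negative one, against 1.66% of all genes called positive. The list's median interaction was 0.55, against 0.01 over all genes tested. Its median compound difference was 0.78 at 3750 nM and 0.18 at 1500 nM. The median step between the doses was 0.76 for the degrader and 0.16 for the inhibitor. Without the libraries of low mitochondrial share 21 members were called, with a median interaction of 0.65. When any 1 treated library was left out, 19 to 21 were called. The list was written with earlier results of these data known, so its count is a description.

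Among the regulators, ATF4 itself had 290, 308 and 314 CPM in SGI-1776-VHL-02 3750 nM, against 184, 200 and 218 CPM in SGI-1776 3750 nM. At 1500 nM ATF4 had 171, 192 and 214 CPM with the degrader, against 164, 171 and 182 CPM with the inhibitor. The compounds' libraries were apart at 3750 nM and overlapped at 1500 nM. Its interaction was 0.44 ± 0.08 (adjusted p = 0.00172 by edgeR). TRIB3, a pseudokinase that ATF4 induces and that restrains AKT and ATF4 activity, had 260, 268 and 281 CPM in SGI-1776-VHL-02 3750 nM, against 97.0, 106 and 120 CPM in SGI-1776 3750 nM. At 1500 nM TRIB3 had 98, 128 and 161 CPM with the degrader, against 89.7, 99.0 and 104 CPM with the inhibitor. TRIB3 stayed near its DMSO level of 89.9 to 106 CPM with the inhibitor at both doses, and its interaction was 0.94 ± 0.12 (adjusted p = 6.38e-06).

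CEBPG, the bZIP partner that ATF4 pairs with on DNA, had an interaction of 0.54 ± 0.12 (adjusted p = 0.00549 by edgeR). JDP2, a bZIP repressor of the AP-1 family outside the list, had 12.2, 14.1 and 15.6 CPM in SGI-1776-VHL-02 3750 nM, against 5.21, 6.18 and 7.16 CPM in SGI-1776 3750 nM. At 1500 nM JDP2 had 4.94, 5.91 and 6.59 CPM with the degrader, against 4.59, 4.99 and 6.99 CPM with the inhibitor. Only the degrader libraries at 3750 nM stood apart from the rest, and the interaction of JDP2 was 1.01 ± 0.15 (adjusted p = 5.1e-05). NUPR1, a small stress-induced chromatin protein, had 58.8, 61.8 and 69.2 CPM in SGI-1776-VHL-02 3750 nM, against 35.1, 40.4 and 48.1 CPM in SGI-1776 3750 nM. At 1500 nM NUPR1 had 17.7, 22.4 and 29.3 CPM with the degrader, against 24.1, 26.2 and 29.1 CPM with the inhibitor. Both compounds' steps between the doses passed for NUPR1, 1.47 with the degrader and 0.65 with the inhibitor (adjusted p = 1.67e-11 and 0.000144 by edgeR). DDIT3, the death-linked factor CHOP, had an uncalled interaction of 0.25 (interval -0.00 to 0.50), and its gene overlaps MARS on the other strand.

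Several called members of the ATF4 list make serine or carry its carbon. PHGDH, the first enzyme of serine synthesis, had 346, 369 and 390 CPM in SGI-1776-VHL-02 3750 nM, against 155, 164 and 174 CPM in SGI-1776 3750 nM. At 1500 nM PHGDH had 158, 187 and 215 CPM with the degrader, against 157, 161 and 170 CPM with the inhibitor. In DMSO it had 153 to 173 CPM, so the inhibitor libraries lay in the DMSO range or just above it at both doses. Its interaction was 0.96 ± 0.08 (interval 0.79 to 1.13; adjusted p = 6.47e-09 by edgeR). PSAT1, the next enzyme of that pathway, had 176, 189 and 209 CPM in SGI-1776-VHL-02 3750 nM, against 80.7, 83.3 and 91.0 CPM in SGI-1776 3750 nM. At 1500 nM PSAT1 had 82.5, 97.7 and 116 CPM with the degrader, against 74.7, 84.2 and 89.8 CPM with the inhibitor. PSAT1 thus overlapped between the compounds at 1500 nM and not at 3750 nM, with an interaction of 0.95 ± 0.10 (adjusted p = 3.07e-07). PSPH, which completes serine synthesis (0.40), SHMT2 (0.53) and MTHFD2 (0.62), which carry serine carbon into the folate pool of mitochondria, and PCK2, the mitochondrial enzyme that makes phosphoenolpyruvate (0.81), were also called.

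ASNS, the asparagine synthetase that is a classical ATF4 target, was counted at a low level in these libraries. It had 3.73, 4.63 and 6.10 CPM in SGI-1776-VHL-02 3750 nM, against 1.49, 2.25 and 3.55 CPM in SGI-1776 3750 nM. At 1500 nM it had 1.21, 1.86 and 2.00 CPM with the degrader, against 1.2, 1.74 and 1.78 CPM with the inhibitor. The compounds did not overlap at 3750 nM, and its interaction of 0.92 ± 0.26 was close to the threshold (adjusted p = 0.0456 by edgeR; called in 9 of 24 fits that left out 1 library). The ASNS gene overlaps AC079781.5 on the same strand, with means of 2.46 CPM for ASNS and 0.947 CPM for AC079781.5. How reads shared by these genes were counted was not checked, so the level of ASNS is uncertain.

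Secreted and stress-braking members of the group had some of the highest values of all. ADM2, a hormone of the calcitonin family, had the highest interaction of the 12 named for a positive value. It had 21.2, 22.4 and 25.4 CPM in SGI-1776-VHL-02 3750 nM, against 6.53, 7.27 and 7.66 CPM in SGI-1776 3750 nM. At 1500 nM it had 5.26, 6.64 and 8.55 CPM with the degrader, against 5.26, 5.76 and 6.33 CPM with the inhibitor. The interaction of ADM2 was 1.42 ± 0.13 (interval 1.15 to 1.68; adjusted p = 2.45e-08 by edgeR). CHAC1, which breaks down glutathione, had 53, 56.1 and 59.6 CPM in SGI-1776-VHL-02 3750 nM, against 16.6, 18.8 and 24 CPM in SGI-1776 3750 nM. At 1500 nM CHAC1 had 11.6, 20.4 and 28.5 CPM with the degrader, against 11.8, 14.2 and 17 CPM with the inhibitor. The wide range of CHAC1 with 1500 nM degrader separated by Rep, with the 3 Rep 2 libraries above the 3 of Rep 1, and its interaction was 1.07 ± 0.22 (adjusted p = 0.00305 by edgeR). At 1500 nM the SD was also larger with the degrader than with the inhibitor for PHGDH (26.3 against 4.53 CPM), TRIB3 (25.7 against 5.30 CPM) and DDIT4 (3.98 against 1.34 CPM). For JDP2 it was smaller (0.576 against 0.889 CPM).

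SESN2, a leucine sensor that restrains mTORC1, had 29.4, 35.6 and 37.3 CPM in SGI-1776-VHL-02 3750 nM, against 17, 18.9 and 22.8 CPM in SGI-1776 3750 nM. At 1500 nM SESN2 had 13.4, 16.7 and 20.1 CPM with the degrader, against 13.9, 16.6 and 18.5 CPM with the inhibitor. The compound difference of SESN2 was 0.85 at 3750 nM and -0.01 at 1500 nM on the log2 scale. The interaction was 0.85 ± 0.13 (adjusted p = 7.18e-05 by edgeR). DDIT4, another brake on mTORC1, followed with 0.95 ± 0.17 (adjusted p = 0.00103 by edgeR). Not every target moved: 11 members had no called interaction, among them ATF3 (0.20), GDF15 (0.19), PPP1R15A (0.18), SLC38A2 (0.07) and the cystine transporter SLC7A11 (0.55, adjusted p = 0.125 by edgeR). SLC7A11 was called with Rep as a block, with 0.57.

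**Figure D2:**
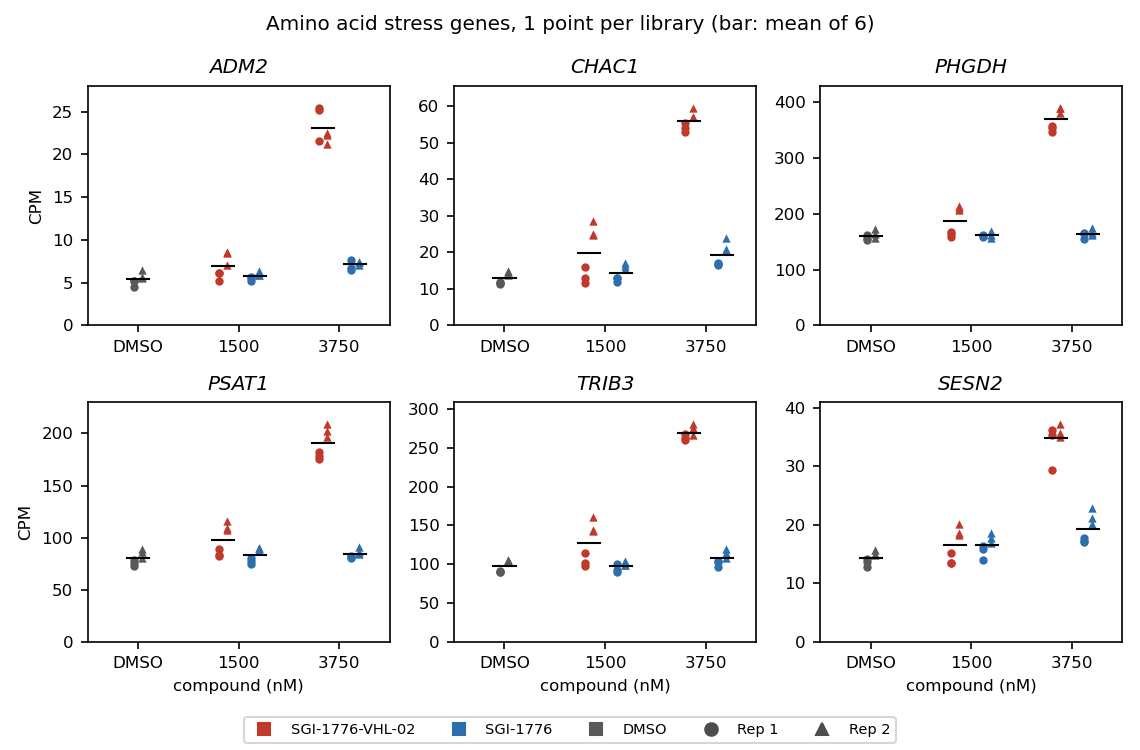
CPM of ADM2, CHAC1, PHGDH, PSAT1, TRIB3 and SESN2 in DMSO and at 1500 and 3750 nM, with 1 point per library, circles for Rep 1, triangles for Rep 2 and a bar at the mean of 6. In all 6 genes the SGI-1776-VHL-02 libraries at 3750 nM lie above every other library, and the SGI-1776 libraries at 3750 nM lie well below them.

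Amino acid transporters were read with a list added after values of these data had been seen. Of 24 tested members, 6 had a called positive interaction and 1, SLC7A2, a called negative one (-0.46), against 1.66% and 1.02% of all genes. SLC7A5, the light chain of the large neutral amino acid transporter, averaged 453 ± 8.14 CPM in SGI-1776-VHL-02 3750 nM and 209 ± 3.77 CPM in SGI-1776 3750 nM (SD, n = 6 each). At 1500 nM SLC7A5 averaged 266 ± 24 CPM with the degrader and 208 ± 4.72 CPM with the inhibitor, and its interaction was 0.76 ± 0.06 (adjusted p = 2.43e-09 by edgeR). Its heavy chain partner SLC3A2 had an interaction of 0.69, the glutamine transporter SLC1A5 0.69, the neutral amino acid transporter SLC1A4 0.64, the glycine transporter SLC6A9 0.71 and the cationic amino acid transporter SLC7A1 0.51. The other 17 members were not called, so the list as a whole had a median of only 0.09.

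Of 20 cytosolic aminoacyl-tRNA synthetases, the enzymes that load amino acids onto tRNA, 11 had a called positive interaction, against 1.66% of all genes, and none a negative one. The fit with Rep as a block called 12 of them positive and 2 negative, against 3.43% and 2.77% of all genes in that fit. The median of the list was 0.29, with 0.33 in Rep 1 and 0.22 in Rep 2. GARS, the glycyl-tRNA synthetase, averaged 327 ± 12.7 CPM in SGI-1776-VHL-02 3750 nM and 174 ± 11 CPM in SGI-1776 3750 nM (SD, n = 6 each). At 1500 nM GARS averaged 215 ± 26.1 CPM with the degrader and 174 ± 9.70 CPM with the inhibitor, and the interaction was 0.61 ± 0.08 (adjusted p = 2.01e-05 by edgeR). The step of GARS between the doses was 0.60 with the degrader and -0.00 with the inhibitor. MARS (0.56, overlapping DDIT3 on the other strand), CARS (0.54), YARS (0.50), AARS (0.41), SARS (0.40), IARS (0.40), WARS (0.38), TARS (0.37), EPRS (0.35) and NARS (0.22) made up the other called members. The 9 uncalled members lay between -0.10 and 0.14, with LARS the highest of them. XPOT, which exports tRNA from the nucleus and is outside the lists, had an interaction of 0.65 ± 0.07 (adjusted p = 4e-07). XPOT, ASNS, PCK2, PSPH, CEBPG, DDIT3, SLC7A11 and ATF4 were picked for the text after their values were seen.

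The promoters of these genes were searched for the ATF4 composite element, written here as TGATGNAA and read on both strands. RefSeq promoters (GRCh38.p14, 250 bases before to 50 after the start) were matched for 12036 of the 17499 tested genes. The element was present in 3.62% of 35116 promoter windows. By gene, it was present in 346 of the 12036 matched tested genes (2.87%), a gene being counted if any of its windows held it. It was present in 30 of 223 matched genes of positive interaction (13.5%) and in 2 of 139 of negative interaction (1.44%). In the synthetase list 7 of the 10 matched called genes held it, and in the ATF4 list 5 of 18. Of the 6 called transporters of positive interaction, 4 held it. In the same promoters 7 other motifs were searched on both strands. The NF-Y box (CCAAT) was present in 43.0% of the matched genes of positive interaction and in 52.5% of those of negative interaction, against 42.2% of all matched tested genes. It was also present in 12 of the 18 matched called genes of the ATF4 list. The CHR element of cell cycle genes (TTTGAA) was present in 14.3% of genes of positive and 16.5% of genes of negative interaction, against 13.8% of all. The FOXO motif (GTAAACA) was present in 4.04% of genes of positive and 3.6% of genes of negative interaction, against 3.53% of all. For the motif of the aryl hydrocarbon receptor (TTGCGTG) these shares were 1.79% and 3.6%, against 2.01% of all. The motifs of E2F (GGCGGGAA), SREBP (TCACNCCAC) and TFEB (CACGTGAC) were present in 5.38%, 2.24% and 4.04% of genes of positive and in 3.6%, 0.719% and 5.04% of genes of negative interaction, against 6.23%, 1.4% and 4.97% of all. These are letter matches and not measured sites. The 5 promoters below are shown 5′ to 3′ because they carry the element in an enzyme, a glutathione-degrading enzyme, a transcription factor and a pair of synthetases; capitals mark TGATGNAA or its reverse complement.
ASNS promoter, chr7:97872359-97872658, minus strand, element from 68 bases before the start: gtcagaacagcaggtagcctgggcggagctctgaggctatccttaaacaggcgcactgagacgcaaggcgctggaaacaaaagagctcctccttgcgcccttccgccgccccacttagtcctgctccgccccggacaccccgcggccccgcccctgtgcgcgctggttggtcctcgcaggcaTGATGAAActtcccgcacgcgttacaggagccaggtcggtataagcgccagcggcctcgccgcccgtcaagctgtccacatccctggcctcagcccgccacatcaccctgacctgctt
CHAC1 promoter, chr15:40953221-40953520, plus strand, element on the opposite strand from 209 bases before the start: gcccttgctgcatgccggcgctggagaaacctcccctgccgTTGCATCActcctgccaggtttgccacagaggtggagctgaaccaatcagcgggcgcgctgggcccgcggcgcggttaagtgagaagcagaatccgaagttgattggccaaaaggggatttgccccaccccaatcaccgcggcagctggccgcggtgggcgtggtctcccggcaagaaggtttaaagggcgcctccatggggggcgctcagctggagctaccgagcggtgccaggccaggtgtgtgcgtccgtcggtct
JDP2 promoter, chr14:75427772-75428071, plus strand, element from 16 bases before the start: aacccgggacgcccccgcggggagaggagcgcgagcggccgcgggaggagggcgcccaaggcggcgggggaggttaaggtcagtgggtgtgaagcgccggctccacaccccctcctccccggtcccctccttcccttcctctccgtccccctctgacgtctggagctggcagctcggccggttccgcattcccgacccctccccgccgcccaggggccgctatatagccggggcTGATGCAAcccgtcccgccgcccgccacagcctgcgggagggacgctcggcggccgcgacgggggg
GARS promoter, chr7:30594628-30594927, plus strand, element on the opposite strand from 33 bases before the start: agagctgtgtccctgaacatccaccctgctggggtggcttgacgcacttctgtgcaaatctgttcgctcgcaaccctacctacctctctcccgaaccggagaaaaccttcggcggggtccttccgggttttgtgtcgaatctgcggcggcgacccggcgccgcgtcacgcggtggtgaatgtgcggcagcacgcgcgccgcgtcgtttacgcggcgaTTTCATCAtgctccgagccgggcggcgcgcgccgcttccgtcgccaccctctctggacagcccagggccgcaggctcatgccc
CARS promoter, chr11:3057374-3057673, minus strand, element on the opposite strand from 2 bases before the start: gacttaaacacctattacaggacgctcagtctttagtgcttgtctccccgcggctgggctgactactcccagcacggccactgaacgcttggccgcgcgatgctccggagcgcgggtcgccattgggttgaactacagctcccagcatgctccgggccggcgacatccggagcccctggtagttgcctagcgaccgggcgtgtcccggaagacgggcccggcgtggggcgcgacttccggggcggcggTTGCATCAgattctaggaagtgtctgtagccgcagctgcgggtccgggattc

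Outside amino acid genes, positive interactions were called in some inflammatory genes. Of 24 tested NF-kB targets and cytokines, 5 had a called positive interaction, against 1.66% of all genes, and none a negative one, with a list median of 0.17. TNFAIP3, the A20 enzyme that limits NF-kB signalling, had 22.2, 23.4 and 26.9 CPM in SGI-1776-VHL-02 3750 nM, against 8.71, 9.82 and 11.8 CPM in SGI-1776 3750 nM. At 1500 nM TNFAIP3 had 10.1, 12.4 and 15.9 CPM with the degrader, against 8.70, 11.3 and 13.8 CPM with the inhibitor. The DMSO libraries spread between 9.19 and 24.7 CPM, a range that overlaps all 4 treated groups, and the interaction was 1.09 ± 0.25 (adjusted p = 0.0139 by edgeR). IL32 (0.64), LIF (0.53), IL1B (0.51) and TNFAIP2 (0.40) were the other called members. With Rep as a block 7 were called positive and 1 negative, against 3.43% and 2.77% of all genes in that fit. IL1B averaged 34.4 ± 2.93 CPM in SGI-1776-VHL-02 3750 nM and 20.6 ± 3.39 CPM in SGI-1776 3750 nM (SD, n = 6 each), against 38.5 ± 2.13 CPM in DMSO. The chemokines CXCL8 (0.66), CXCL1 (-0.04) and CXCL2 (-0.37) were not called and did not share a sign.

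PI3, the protease inhibitor elafin of epithelia, had 213, 247 and 285 CPM in SGI-1776-VHL-02 3750 nM, against 72.3, 90.2 and 113 CPM in SGI-1776 3750 nM. At 1500 nM PI3 had 91.1, 118 and 141 CPM with the degrader, against 64.2, 86.0 and 115 CPM with the inhibitor. The compounds were apart at 3750 nM and overlapped at 1500 nM, and the interaction was 1.02 ± 0.26 (adjusted p = 0.0244 by edgeR). In fits without a block, the call of PI3 was lost without any 1 of the 3 Rep 2 libraries of SGI-1776 1500 nM (0.93, 0.94 and 0.91). It was also lost without the third Rep 1 library of SGI-1776 3750 nM (0.96). With Rep as a block, the adjusted p of PI3 was 1.09e-09 over 30 libraries and 6.23e-05 in the summed samples (edgeR). S100P, a calcium-binding protein of epithelial tumours, had 20.1, 21.8 and 26.9 CPM in SGI-1776-VHL-02 3750 nM, against 12.3, 13.7 and 15.5 CPM in SGI-1776 3750 nM. At 1500 nM S100P had 6.73, 7.85 and 8.81 CPM with the degrader, against 7.52, 8.93 and 9.96 CPM with the inhibitor. S100P was higher at 3750 than at 1500 nM with both compounds, by 1.54 with the degrader and 0.64 with the inhibitor, which gave an interaction of 0.90 ± 0.13 (adjusted p = 4.7e-05). It was the only called member of the 12 tested S100 genes, against 1.66% of all genes called positive, in a list added after values were seen.

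Of 17 tested PIM and JAK/STAT genes, 3 had a called positive interaction, against 1.66% of all genes, and 1 without the libraries of low mitochondrial share. SOCS2, a feedback inhibitor of STAT5 signalling, had 16.4, 19.9 and 22.2 CPM in SGI-1776-VHL-02 3750 nM, against 7.59, 8.82 and 9.10 CPM in SGI-1776 3750 nM. At 1500 nM SOCS2 had 12.1, 13.3 and 14.8 CPM with the degrader, against 9.21, 9.82 and 10.7 CPM with the inhibitor. The compounds did not overlap at either dose, and the gap was wider at 3750 nM, with an interaction of 0.78 ± 0.11 (adjusted p = 4.42e-05 by edgeR). SOCS3 (0.29) and the cytokine receptor OSMR (0.22, overlapping RICTOR on the other strand) were the other called members, and their calls held in 4 and 17 of 24 fits that left out 1 library. With Rep as a block their adjusted p was 0.00125 and 0.00597 over 30 libraries, and 0.0493 and 0.079 in the summed samples (edgeR). In the glycolysis and hypoxia list 4 of 28 members were called positive, VEGFA with 0.66, NDRG1 with 0.29, BNIP3 with 0.23 and HK2 with 0.17, against 1.66% of all genes. For NDRG1 the compound difference was -0.29 at 1500 nM and 0.01 at 3750 nM. The fit with Rep as a block called 5 members of the list positive and 2 negative, against 3.43% and 2.77% of all genes in that fit. Leaving out any 1 of the 24 treated libraries left 0 to 3 members called, and 2 were called without the libraries of low mitochondrial share. Among the fits that left out 1 library BNIP3 was called in 7, NDRG1 in 15, HK2 in 16 and VEGFA in 11 of 24. In the summed samples with the block HK2 (adjusted p = 0.125) and NDRG1 (0.0542) were not called, while VEGFA (1.7e-05) and BNIP3 (0.0245) were (edgeR). With Rep as a block over 30 libraries, the adjusted p was 2.47e-05 for VEGFA, 0.00151 for NDRG1, 1.52e-05 for BNIP3 and 0.0065 for HK2 (edgeR). The value of VEGFA, the angiogenic growth factor, was 0.44 and not called without the libraries of low mitochondrial share. Other called positive genes were the BH3-only death gene PMAIP1 (0.57), the haem-degrading enzyme HMOX1 (0.49), the growth arrest gene GADD45A (0.44) and the ER stress sensor ERN1 (0.32). PMAIP1 was the only called member of 17 BCL2 family genes (median 0.03). Of 29 NRF2 antioxidant and iron genes, HMOX1 alone was called positive and 1 was called negative (median 0.01). ERN1 was 1 of 2 called positive among 24 ER chaperone and unfolded protein response genes (median 0.07). Of all genes 1.66% were called positive.

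Among the 3 called negative interactions of at least 2-fold, SCGB3A1, a secretoglobin chosen after its value was seen, had -1.66 (adjusted p = 0.0391 by edgeR) at a mean of only 0.612 CPM over the treated libraries. PPP1R1B, the phosphatase inhibitor DARPP-32, was the lowest of the 12 named for a negative value, which had to reach 5 CPM in a treated group and to be called in the summed samples with the block. It had 3.17, 4.32 and 4.82 CPM in SGI-1776-VHL-02 3750 nM, against 20.8, 22 and 24.3 CPM in SGI-1776 3750 nM. At 1500 nM it had 7.21, 8.54 and 9.91 CPM with the degrader, against 17.5, 20.6 and 23.9 CPM with the inhibitor. In DMSO it had 12.2, 16.5 and 17.7 CPM, so the degrader libraries lay below DMSO at both doses and the inhibitor libraries mostly above it. The compound difference was -2.40 at 3750 nM and -1.26 at 1500 nM, and the interaction was -1.14 ± 0.13 (interval -1.41 to -0.86; adjusted p = 1.68e-06 by edgeR).

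Some matrix genes were lower with the degrader at both doses. SPARC, a secreted collagen-binding protein, had 15.9, 17 and 21.5 CPM in SGI-1776-VHL-02 3750 nM, against 61.5, 67.6 and 78.3 CPM in SGI-1776 3750 nM. At 1500 nM SPARC had 20.9, 29.3 and 40.2 CPM with the degrader, against 53.1, 62.5 and 75.2 CPM with the inhibitor. The compounds were apart at both doses, and the interaction of SPARC was -0.86 ± 0.18 (adjusted p = 0.00368 by edgeR). COL2A1, a fibrillar collagen of cartilage outside the matrix list, had 5.51, 6.95 and 10.9 CPM in SGI-1776-VHL-02 3750 nM, against 29.0, 32.8 and 36.8 CPM in SGI-1776 3750 nM. At 1500 nM COL2A1 had 9.15, 12.7 and 13.9 CPM with the degrader, against 23.8, 26.0 and 30.3 CPM with the inhibitor. With an interaction of -0.99 ± 0.17 (adjusted p = 0.000403), COL2A1 lay below its DMSO range of 15.8 to 19.4 CPM with the degrader and above it with the inhibitor. CTGF, a matricellular target of YAP and TGF-beta, had an interaction of -0.57 and COL5A2 one of -0.25. These, with SPARC, were the 3 of 40 tested matrix and integrin genes called negative, while ITGA3 (0.37) and LAMB3 (0.32), of the epithelial laminin adhesion system, were called positive. Of all genes 1.02% were called negative and 1.66% positive. The median of the matrix list was 0.06. With Rep as a block 5 members were called positive and 4 negative, against 3.43% and 2.77% of all genes in that fit. COL1A1 was not called (0.01). The 10 fibroblast and endothelial markers summed to 51.7 to 74.9 CPM in SGI-1776-VHL-02 3750 nM, 54.6 to 87.1 CPM in SGI-1776 3750 nM, 54.1 to 84.0 CPM in SGI-1776-VHL-02 1500 nM and 59.1 to 82.6 CPM in SGI-1776 1500 nM, ranges that overlap.

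ID genes, which encode inhibitors of basic helix-loop-helix factors and are induced by BMP signalling, were read with a list added after values were seen. ID3 had 19.4, 20.7 and 22.7 CPM in SGI-1776-VHL-02 3750 nM, against 47.0, 49.7 and 53.7 CPM in SGI-1776 3750 nM. At 1500 nM ID3 had 29.1, 32 and 38.3 CPM with the degrader, against 41.4, 43.4 and 45.9 CPM with the inhibitor. Neither dose gave overlap between the compounds, and the interaction was -0.85 ± 0.08 (interval -1.02 to -0.69; adjusted p = 3.67e-08 by edgeR). ID1 had 158, 173 and 184 CPM in SGI-1776-VHL-02 3750 nM, against 244, 262 and 292 CPM in SGI-1776 3750 nM, and an interaction of -0.50 ± 0.08 (adjusted p = 0.000112). Of 16 tested members, 6 were called negative, against 1.02% of all genes: ID3, ID1, ID2 (-0.33), the Notch and BMP target HES1 (-0.33), the ligand BMP4 (-0.33) and the pseudoreceptor BAMBI (-0.50), which dampens BMP and TGF-beta receptors. HEY1, a Notch and BMP target, went the other way with 0.49 ± 0.08 (adjusted p = 0.000412). The list's median was -0.27 in both Reps together, -0.27 in Rep 1 and -0.22 in Rep 2.

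ALPP and OASL had compound differences of opposite sign at the 2 doses, of which 1 passed in each gene. ALPP, placental alkaline phosphatase, had 14.3, 16.5 and 18.0 CPM in SGI-1776-VHL-02 3750 nM, against 25.3, 28.3 and 29.5 CPM in SGI-1776 3750 nM. At 1500 nM ALPP had 20.1, 22.3 and 23.5 CPM with the degrader, against 17.2, 19.6 and 22.5 CPM with the inhibitor. The compound difference of ALPP at 1500 nM was 0.17 and did not pass (adjusted p = 0.0544 by edgeR). The degrader's step between the doses was -0.44 and the inhibitor's 0.51, and the interaction was -0.95 ± 0.09 (adjusted p = 7.06e-08 by edgeR). ALPP has near-identical paralogs, so the split of its reads is uncertain. OASL, an interferon-induced protein, had 7.35, 7.65 and 8.49 CPM in SGI-1776-VHL-02 3750 nM, against 7.20, 8.71 and 10.2 CPM in SGI-1776 3750 nM. At 1500 nM OASL had 10.04, 11 and 11.4 CPM with the degrader, against 6.08, 7.20 and 8.74 CPM with the inhibitor. Here the compounds differed at 1500 nM (0.59) and overlapped at 3750 nM (-0.18, adjusted p = 0.0990), with an interaction of -0.77 ± 0.11 (adjusted p = 6.75e-05). Of 31 tested interferon response genes, 4 were called negative (OASL, IFIT1 with -0.56, IFI35 with -0.32 and ISG15 with -0.28) and none positive, against 1.02% of all genes called negative. IFIT1 overlaps LIPA on the other strand. The list's median was -0.22. With Rep as a block 9 members were called negative, 6 in the summed samples with the block and 2 without the libraries of low mitochondrial share. Of all genes these fits called 2.77%, 1.01% and 0.606% negative. With 1 library left out, 2 to 6 were called, and the call of IFI35 held in 6 of 24 such fits and not in the summed samples with the block (adjusted p = 0.0933 by edgeR).

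CYP1A1, a xenobiotic-metabolising enzyme induced by the aryl hydrocarbon receptor, had 5.06, 7.37 and 10.3 CPM in SGI-1776-VHL-02 3750 nM, against 15.8, 17.2 and 19.5 CPM in SGI-1776 3750 nM. At 1500 nM CYP1A1 had 9.52, 10.8 and 12.7 CPM with the degrader, against 11.5, 12.6 and 13.4 CPM with the inhibitor. The 2 steps had opposite signs, -0.54 for the degrader and 0.47 for the inhibitor, and both passed (adjusted p = 0.00117 and 0.00585 by edgeR). The interaction of CYP1A1 was -1.02 ± 0.16 (adjusted p = 0.000179 by edgeR). CYP1B1 (-0.42) and TIPARP (-0.29), 2 further targets of that receptor, were also called, making 3 of 8 tested, against 1.02% of all genes called negative. CYP1A1 alone remained called without the libraries of low mitochondrial share. CYP1B1 averaged 88.2 ± 14.5 CPM in SGI-1776-VHL-02 3750 nM and 135 ± 5.32 CPM in SGI-1776 3750 nM (SD, n = 6 each), and its call held in 10 of 24 fits that left out 1 library. FOLH1, the prostate-specific membrane antigen, had 1.31, 1.88 and 2.21 CPM in SGI-1776-VHL-02 3750 nM, against 3.63, 5.09 and 7.43 CPM in SGI-1776 3750 nM. At 1500 nM FOLH1 had 1.70, 2.11 and 2.73 CPM with the degrader, against 2.78, 3.24 and 4.07 CPM with the inhibitor. FOLH1 had an interaction of -0.92 ± 0.24 (adjusted p = 0.0284 by edgeR), held in 16 of 24 fits that left out 1 library, and was not called without the libraries of low mitochondrial share (-0.78). The water and glycerol channel AQP3 (-0.91), the gel-forming mucin MUC6 (-0.87) and the RNA poly(A) polymerase TENT5C (-0.71) completed the 12 named for a negative value, with the histone described below. TENT5C too was called in 16 of 24 such fits, and neither it (-0.44) nor MUC6 (-0.75) was called without the low-share libraries.

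**Figure D3:**
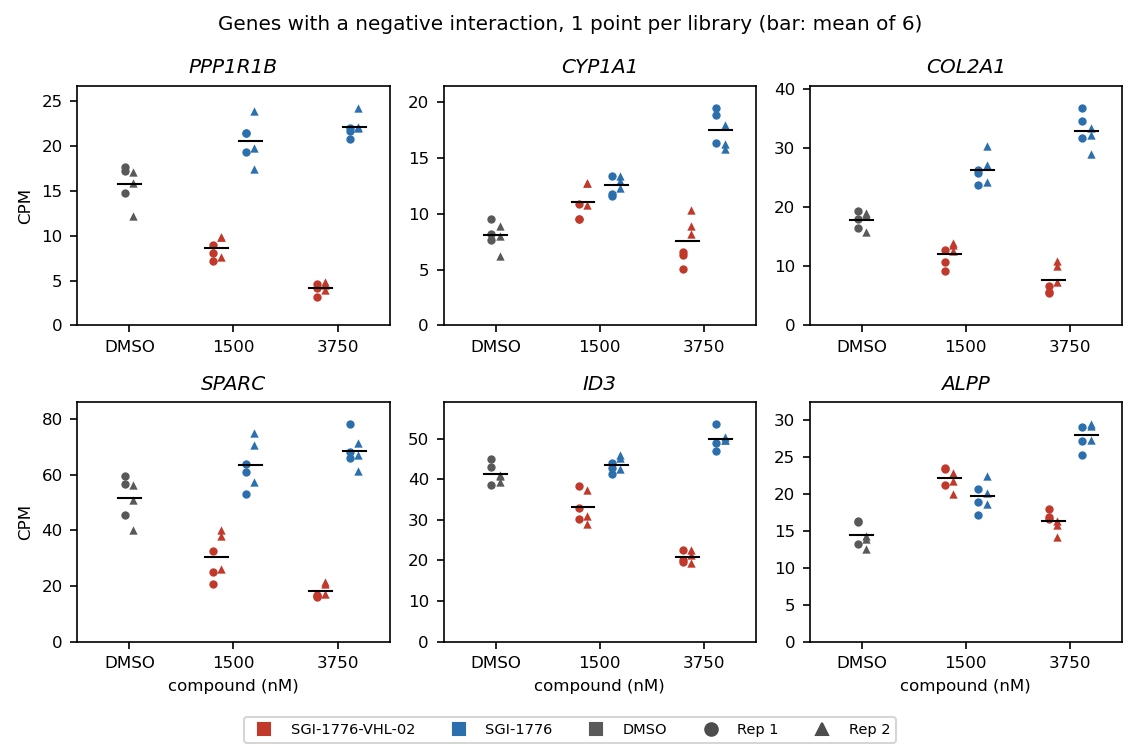
CPM of PPP1R1B, CYP1A1, COL2A1, SPARC, ID3 and ALPP in DMSO and at 1500 and 3750 nM, with 1 point per library, circles for Rep 1, triangles for Rep 2 and a bar at the mean of 6. At 3750 nM all SGI-1776-VHL-02 libraries lie below all SGI-1776 libraries in each gene, while in ALPP and CYP1A1 the compounds overlap at 1500 nM.

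Mitotic genes had small negative values across their list. Of 35 tested G2/M and mitosis genes, 34 had a negative value, against 8340 of the 17499 tested genes. In this list 8 were called negative and none positive, against 1.02% of all genes called negative. The median was -0.18, with -0.25 in Rep 1 and -0.13 in Rep 2. CCNB1, the cyclin that drives entry into mitosis, had 106, 110 and 117 CPM in SGI-1776-VHL-02 3750 nM, against 101, 111 and 116 CPM in SGI-1776 3750 nM. At 1500 nM CCNB1 had 154, 157 and 160 CPM with the degrader, against 113, 121 and 135 CPM with the inhibitor, while DMSO had 137 to 155 CPM. The compounds thus overlapped at 3750 nM and were apart at 1500 nM, where the degrader libraries stood near or above DMSO and the inhibitor libraries below it. The interaction of CCNB1 was -0.34 ± 0.06 (adjusted p = 0.000388 by edgeR). The other called members were PTTG1, the securin (-0.35), the kinesins KIF2C (-0.33), KIF20A (-0.29) and CENPE (-0.32), the mitotic kinases AURKA (-0.26) and PLK1 (-0.24), and cyclin A2, CCNA2 (-0.22). Over the list, the median compound difference was 0.14 at 3750 nM and 0.33 at 1500 nM, and the median step was -0.43 for the degrader and -0.23 for the inhibitor. With Rep as a block 16 members were called negative, 11 in the summed samples with the block, and 8 without the libraries of low mitochondrial share. Of all genes these fits called 2.77%, 1.01% and 0.606% negative. When 1 library was left out, 7 to 14 were called. By contrast, none of 41 tested G1/S and replication genes was called, with a median of -0.01 and equal median steps of -0.17 for both compounds.

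Histone genes, in a list added after values were seen, had 6 of 29 members called negative and none positive, with a median of -0.26, against 1.02% of all genes called negative. With Rep as a block 10 were called negative, and 6 in the summed samples with the block. Of all genes these fits called 2.77% and 1.01% negative. HIST1H2BC, an H2B gene, had 8.72, 11.3 and 12.5 CPM in SGI-1776-VHL-02 3750 nM, against 23.0, 25.3 and 28.1 CPM in SGI-1776 3750 nM. At 1500 nM HIST1H2BC had 12.3, 13.7 and 16.8 CPM with the degrader, against 18.1, 19 and 22.1 CPM with the inhibitor. The compounds moved apart with dose in both directions, -0.32 for the degrader's step and 0.36 for the inhibitor's, and the interaction was -0.68 ± 0.11 (adjusted p = 0.000292 by edgeR). HIST1H2AE, an H2A gene counted at a lower level, had an interaction of -0.76 (adjusted p = 0.00107 by edgeR). Canonical histone mRNAs lack a poly(A) tail and the libraries were poly(A)-selected, so these levels cover polyadenylated transcripts; histone genes also share near-identical sequence.

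Of 41 nuclear-encoded respiratory chain genes, 38 had a negative value, against 8340 of the 17499 tested genes. In this list 4 were called negative, against 1.02% of all genes, and none positive, with a median of -0.11. The called members included the ATP synthase subunits ATP5F1A (-0.29) and ATP5F1B (-0.19) and the complex III subunit UQCRC2 (-0.14). With Rep as a block 12 were called negative, against 2.77% of all genes in that fit. In the summed samples with the block 3 were called negative, against 1.01% of all genes. With 1 library left out 2 to 5 were called negative, and none of the 41 was called without the libraries of low mitochondrial share. The 13 mitochondrially encoded genes had a median of 0.02 in Rep 1 and 0.84 in Rep 2, and none was called. That median was -0.50 without the libraries of low mitochondrial share, so no direction is given for them.

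Several large lists had no called member in this fit. These were the G1/S genes, 32 MYC targets and ribosome biogenesis genes (median -0.03), 59 cytosolic ribosomal proteins (0.01), 35 proteasome subunits (-0.04), 31 autophagy genes (0.02), 14 fatty acid synthesis genes (-0.01) and 25 cholesterol synthesis and uptake genes (-0.13). The fit with Rep as a block called 3.43% of all genes positive and 2.77% negative. It called 8 cholesterol genes negative, 3 autophagy genes positive, 1 MYC target negative and, among fatty acid genes, 1 positive and 1 negative. In the summed samples with the block these counts were 3, 0, 1, 0 and 0, and none of them was called without the libraries of low mitochondrial share. SQSTM1, the autophagy receptor p62, had 0.20 and was not called (adjusted p = 0.273), while the block gave 0.20 and an adjusted p of 0.00332 (edgeR). Of the 41 G1/S genes, 34 were higher with the degrader than with the inhibitor at 3750 nM (17.6% of all genes were) and 36 at 1500 nM (14.4% of all genes). The lysosome list had 2 of 35 members called positive (NPC1 with 0.23 and TFE3 with 0.20) and 2 called negative, among them NPC2 with -0.35, against 1.66% and 1.02% of all genes. Either count of the lysosome list was 1 to 2 with 1 library left out and 1 without the libraries of low mitochondrial share, and NPC1 (adjusted p = 0.121) and TFE3 (0.0827) were not called in the summed samples with the block (edgeR). FOXO targets had 3 of 32 called positive (DEPP1 with 0.59, GADD45A and KLF6 with 0.35) and p53 targets 2 of 25 (SESN2 and PHLDA3 with 0.29), against 1.66% of all genes. Most FOXO targets had a negative value (21 of 32), and the median of that list was -0.05. Values of the p53 list were positive in 16 members and negative in 9. In each of these lists the fit with Rep as a block called 4 members positive and 1 negative, against 3.43% and 2.77% of all genes in that fit.

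**Figure D4:**
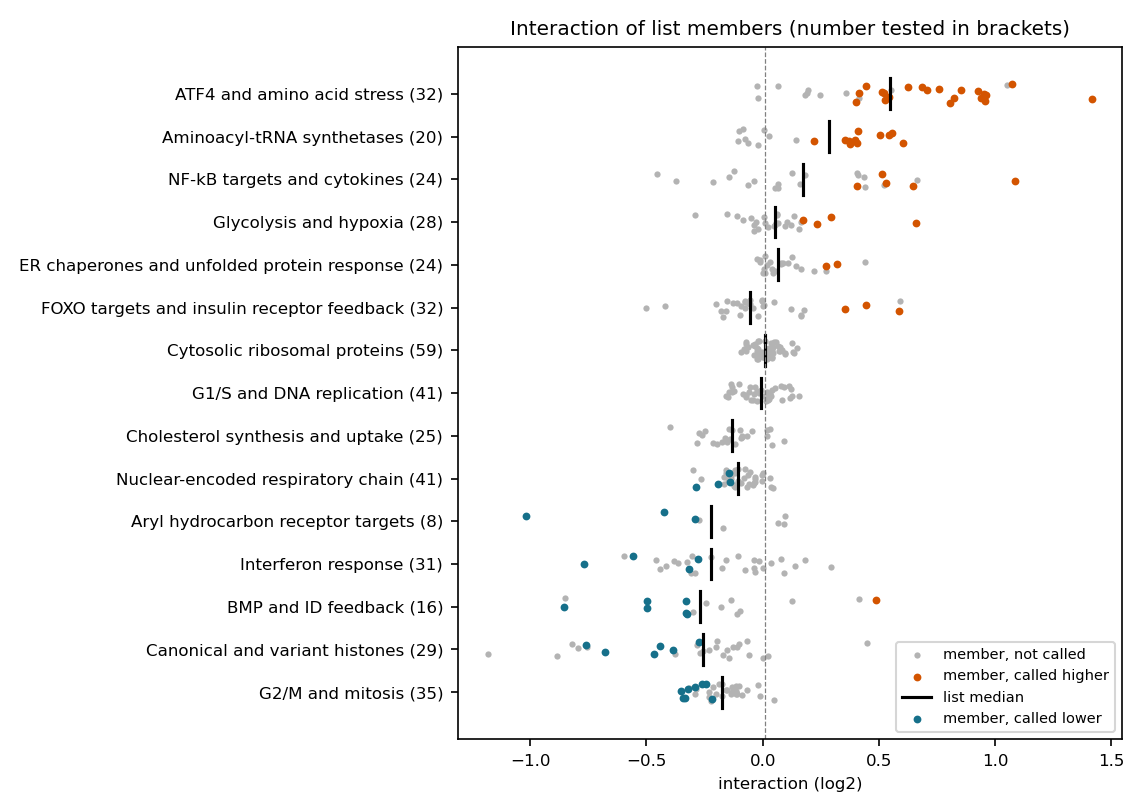
Interaction (log2) of each tested member of 15 gene lists, 1 point per gene, with called members in colour, a bar at the list median and a dashed line at the median of all genes tested. The ATF4 list has 21 of 32 members called positive and the mitosis list 8 of 35 called negative, while ribosomal proteins and G1/S genes lie in a narrow band around 0.

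The Reps were then taken apart. All 468 called genes had the same sign in both Reps, which the joint fit favours since it averages them. Fitted alone, Rep 1 called 385 genes (2.20%), 248 positive (1.42%) and 137 negative (0.783%), and Rep 2 called 269 (1.54%), 156 positive (0.891%) and 113 negative (0.646%). There were 140 genes called in both, all with the same sign. The ATF4 list had 23 called members in Rep 1 and 19 in Rep 2, all positive, with medians of 0.70 and 0.45. The synthetases had 11 and 10, all positive. The mitosis list had 16 called negative in Rep 1 and 4 in Rep 2.

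The estimates of some genes were further apart between the Reps than those of others. CHAC1 had an interaction of 1.58 ± 0.12 in Rep 1 and 0.71 ± 0.10 in Rep 2, NUPR1 1.22 ± 0.08 and 0.50 ± 0.11, and DDIT4 1.40 ± 0.11 and 0.62 ± 0.15 (SE, n = 3 libraries per group). PI3 had 1.05 ± 0.08 in Rep 1 and 0.97 ± 0.07 in Rep 2, PSAT1 1.01 ± 0.06 and 0.90 ± 0.07, and S100P 0.86 ± 0.13 and 0.92 ± 0.13. Tested directly in a model of group by Rep, the difference between Reps was called in 2 genes (0.0114%), ATF4 and ELF3, and not in CHAC1 (adjusted p = 0.0508), NUPR1 (0.0596) or DDIT4 (0.509), while 945 genes had an unadjusted p under 0.05 (edgeR). ATF4 had 0.68 in Rep 1 and 0.22 in Rep 2 (adjusted p of the difference = 0.000579 by edgeR), so its interaction was positive in both. ELF3, an epithelial transcription factor, had 0.26 in Rep 1 and -0.28 in Rep 2 (adjusted p = 0.0423), and its joint interaction was -0.02.

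**Figure D5:**
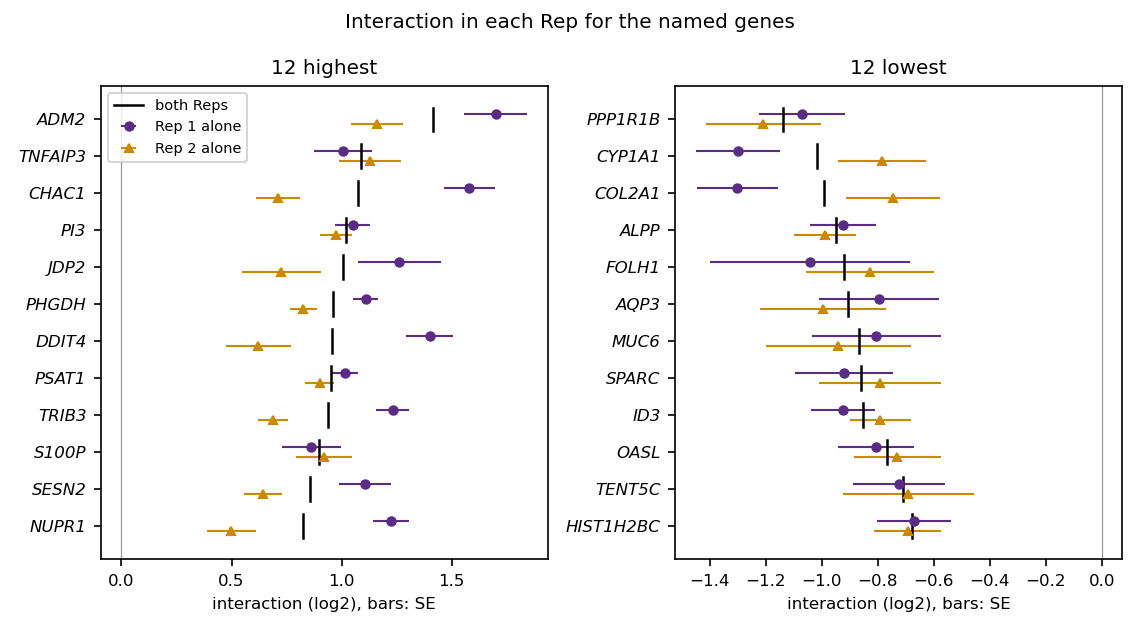
Interaction (log2) of the 12 highest and 12 lowest named genes in Rep 1 alone (circles) and in Rep 2 alone (triangles), with bars for the SE, beside the value over both Reps (black bar). Every gene has 1 sign in both Reps because the choice of these genes required it. ADM2, CHAC1, DDIT4, TRIB3 and NUPR1 were larger in Rep 1, while PI3, PSAT1 and S100P lay close together.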

How the data were processed

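Poly-A RNA of PC3 cells was sequenced, and the deposited table holds raw counts per gene, whole numbers without normalization, for 58735 genes in 30 libraries. Reads were counted with featureCounts 1.5.0-p3 per the submitters' processing notes, and the sources used here name no aligner. The labels' protocol does not say whether the libraries keep strand, so reads of overlapping genes on opposite strands cannot be told apart. All gene identifiers and coordinates are those of the deposited table (GRCh38).

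From these counts, edgeR 4.0.16 in R 4.3.3 (filterByExpr, 17499 genes; TMM; quasi-likelihood fit of 5 groups over 30 libraries, without a block) gave the interaction and its components, with Benjamini-Hochberg adjusted p over all tested genes. Totals of 22520292 to 48968707 counts per library set the precision, and standard errors cover the spread between libraries. Alternatives were Rep as a block, libraries summed per Rep with and without the block, each Rep alone, other scalings and filters, DESeq2 1.42.0, limma 3.58.1 voom with correlated sets, the 24 treated libraries alone, and each treated library left out. The fits that left out 1 library had no block. The fit was also run on simulated counts as a check of the calculation, and the outcome of that run is not given here.

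The members, comparisons and gene lists were chosen with earlier results of these data known, and 4 of the 38 lists were added after the values were seen. Named were PIM1, PIM2, PIM3 and VHL; the 12 highest and 12 lowest protein-coding interactions called in the main and in the summed, blocked fit, with 1 sign in both Reps and at least 5 CPM on average in 1 treated group; and from each list up to 4 called members, or up to 2 of the most abundant where none was called. Some genes that these rules name are not reported here.

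Rep numbers come from the labels. They paired the groups: the Rep 2 minus Rep 1 difference correlated between all 10 pairs of groups (Pearson 0.507 to 0.672, across genes, which are not independent replicates), so blocked values are given for named genes whose call they change and for described lists whose count they move by over 1.5 times. No 2 libraries of a group differed by less than sampling noise (chi-square per degree of freedom at least 1.95 over 75 pairs).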

Additional observations from a re-analysis of the deposited data

Results flagged for a closer look

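The interaction of ATF4 differed between the Reps by a test of that difference: Rep 2 minus Rep 1 was -0.44 on the log2 scale (adjusted p = 0.000579 by edgeR), with 0.68 in Rep 1 and 0.22 in Rep 2. For ELF3 it was -0.52 (adjusted p = 0.0423), with 0.26 in Rep 1 and -0.28 in Rep 2.

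Single libraries far from the other 5 of their group were looked for in 145 groups of values, the 28 genes always named or named for a high or low interaction and the total counts, in 5 groups each. A gap this wide arises by chance in about 1 in 20 groups, and 6 were found. PIM1 had 47.0 CPM in the first Rep 1 library of SGI-1776 3750 nM, against 43.0 to 44.4 CPM in the others. JDP2 had 6.99 CPM in the second Rep 1 library of SGI-1776 1500 nM, against 4.59 to 5.44 CPM. DDIT4 had 13.9 CPM in the third Rep 2 library of SGI-1776 1500 nM, against 10.2 to 11.2 CPM. SESN2 had 29.4 CPM in the first Rep 1 library of SGI-1776-VHL-02 3750 nM, against 35.1 to 37.3 CPM, and HIST1H2BC had 8.72 CPM in the second Rep 1 library of that group, against 11.1 to 12.5 CPM. The third Rep 2 library of SGI-1776-VHL-02 1500 nM held 48968707 counts, against 25594649 to 34304478 in the others.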

How the results depend on the processing

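Of 91 named genes with a called interaction, none changed sign under any of the 13 settings other than leaving out 1 library. Part of this outcome was fixed by the choice of genes. Those named as highest or lowest had to be called in the summed, blocked fit and to have the same sign in both Reps. For them, the call in that fit and the sign without either Rep are no independent test. All 468 called genes, named or not, were also called with the replicate block. All 91 remained called with the replicate block, library size only, the stricter filter and DESeq2, 89 with RLE size factors, 83 with the 24 treated libraries only, 76 with libraries summed per Rep and the replicate block, 70 without the libraries of low mitochondrial share, 66 with no filter, 38 with voom, 55 without Rep 1, 69 without Rep 2 and 0 with libraries summed per Rep and no block. The number of interaction genes (468; 290 positive, 178 negative) was 1086 (601 and 485) with the replicate block, 0 (0 and 0) summed per Rep, 229 (162 and 67) with no filter and 99 (80 and 19) with voom. The negative count was 106 without the libraries of low mitochondrial share. Leaving out a Rep or a library gave 269 to 469 interaction genes, 156 to 280 positive and 113 to 192 negative. Without Rep 1 alone the counts were 269, 156 and 113. The compound difference at 3750 nM (5451 genes) gave 1401 summed per Rep and 2871 with voom, and that at 1500 nM (4408 genes) gave 222 and 1929, and 2712 without Rep 1 to 4611 over the fits that left out a Rep or a library. The cause was not tested, except that fewer libraries enter the fits of 1 Rep and that summing leaves 10 samples.

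Uncalled genes that changed sign without a Rep were, without Rep 1 and without Rep 2, PIM1 (-0.17 and 0.11), PIM3 (-0.17 and 0.029), FASN (0.063 and -0.086), MT-CO1 (0.81 and -0.20), MT-ND4 (0.90 and -0.067) and CSF1R (0.16 and -1.53), and without Rep 2 also COL1A1 (-0.099). Without the libraries of low mitochondrial share these were FASN (0.0066), SCD (0.14), TAX1BP1 (0.094), MT-CO1 (-0.67), MT-ND4 (-0.53) and COL1A1 (-0.28). FASN (0.00041) did so with the stricter filter, and COL1A1 (-0.023 and -0.010) summed per Rep without and with the replicate block.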
